A study of Mus musculus with 10 samples.

Results

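The medial habenula is a small paired nucleus of the epithalamus, and its ventral neurons make acetylcholine and fire spontaneously. Ribosome-bound RNA of these neurons was sequenced from the left and the right side separately. The mice were adults of the BAC transgenic line Chat-TRAP DW167, in which the ribosomal protein Rpl10a fused to EGFP is made under the control of Chat, the gene of choline acetyltransferase. All 10 libraries were pull-downs with antibodies to EGFP, 5 from the left and 5 from the right, and the labels name no other genotype and no treatment. Every library carries the transgene. Unpurified input was not analysed here, and how far the pull-down enriched any gene was not measured. The genes described here are those of the potassium channels other than the BK channel. They were taken by name, as every row whose symbol begins with Kcn except Kcnma1 and Kcnmb, and 91 of 32531 gene rows met that rule. Of these, 73 had at least 10 reads in 4 or more libraries and are described below, and they are among 16681 genes in the files that passed the same limit. The other 18 were Kcna7, Kcna10, Kcne1, Kcne2, Kcne3, Kcne4, Kcnh3, Kcnj1, Kcnj14, Kcnj15, Kcnk5, Kcnk7, Kcnk15, Kcnk16, Kcnk18, Kcnn4, Kcnq1 and Kcnv2, and none of them had more than 37 reads in a library. Just outside the limit, Kcnj15 had 10 reads in 3 libraries, and just inside, Kcne1l and Kcns1 had 10 reads in 5. In 61 of the 73 all 10 libraries reached 10 reads.

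Potassium channels let potassium ions leave the cell and so set the resting voltage, end the action potential and space spikes in time. Voltage-gated (Kv) channels are built from 4 pore subunits, to which auxiliary proteins such as the KChIPs (Kcnip genes) and the Kv beta subunits (Kcnab genes) bind. Silent Kv subunits form no channel alone and join Kv2 subunits. Inward rectifiers (Kir, Kcnj genes) and the K2P family (Kcnk genes) act near the resting voltage, and the SK channels (Kcnn genes) open when calcium rises. Of the 73 genes, 62 encode pore subunits and 8 auxiliary subunits. The remaining 3 carry the name only, namely the noncoding RNA Kcnq1ot1, the antisense RNA Kcnd3os and the regulator Kcnrg.

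The pore of these channels is lined by a short stretch, the selectivity filter, with the order threonine or serine, any residue, glycine, an aromatic residue or leucine, glycine. A search of the coding sequence of the 62 pore genes found that order in all 62, with threonine first and tyrosine in the fourth place in 44 of them. All 9 K2P genes, whose subunits carry a pair of pore loops, had it at least 2 times. The stricter order with threonine and tyrosine was present in 114 of 21540 genes with a coding transcript (0.529%), 57 of them outside the Kcn names, so it is a description and does not identify a channel alone. The windows below are coding sequence of 75 bases from the GENCODE M21 transcripts, with the 15 filter bases in capitals. They are shown for abundant genes of several families and for Kcna1, a relative of Kcna2 whose level differed between libraries as described further on.
Kcna2: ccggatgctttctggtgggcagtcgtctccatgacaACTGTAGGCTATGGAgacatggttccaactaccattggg
Kcna1: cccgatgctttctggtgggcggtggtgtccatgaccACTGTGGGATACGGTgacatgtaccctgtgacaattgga
Kcng4: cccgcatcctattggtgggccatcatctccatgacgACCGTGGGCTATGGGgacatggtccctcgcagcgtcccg
Kcnd2: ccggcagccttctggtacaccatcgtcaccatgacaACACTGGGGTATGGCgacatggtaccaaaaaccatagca
Kcnh5: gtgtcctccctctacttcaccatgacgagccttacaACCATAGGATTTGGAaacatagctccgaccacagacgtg
Kcnn3: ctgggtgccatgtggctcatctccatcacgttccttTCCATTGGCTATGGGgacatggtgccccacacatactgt
Kcnk1, first filter: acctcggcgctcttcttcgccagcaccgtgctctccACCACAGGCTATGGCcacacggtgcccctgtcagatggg
Kcnk1, second filter: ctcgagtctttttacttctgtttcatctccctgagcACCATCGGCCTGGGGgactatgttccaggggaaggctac
In build GRCm38 (mm10), the Kcna2 window lies in a coding exon on the plus strand at chr3:107105188-107105262 and the Kcna1 window on the minus strand at chr6:126642204-126642278. That of Kcng4 is at chr8:119625886-119625960 (minus), that of Kcnh5 at chr12:75087442-75087516 (minus) and that of Kcnn3 at chr3:89645476-89645550 (plus). The second Kcnk1 window is at chr8:126025293-126025367 (plus), and the windows of Kcnd2 and the first of Kcnk1 cross an exon boundary. Close relatives share most of these bases. Kcna2 and Kcna1 had the same base at 57 of 75 positions, and Kcna2 and Kcnd2, of different families, at 55. The filter of Kcnh5, an EAG channel, has phenylalanine in place of tyrosine, that of Kcnn3 starts with serine, and the second filter of Kcnk1 has leucine.

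Levels are given as CPM (reads in a gene when gene rows are scaled to a total of 1000000). Single genes are ranked against each other only as CPM per kb of merged exons. Values for the libraries are listed in the order of replicates 1 to 5. Library totals were between 42488448 and 67942836 reads. In the transcripts that mark medial habenular neurons (10 genes, among them Chat and Tac2, all detected) the summed level was between 4233 and 8746 CPM. The libraries did not fall apart by side but by replicate number. Those numbered 1 and 5, on both sides, had summed astrocyte markers (10 genes) of 103 to 109 CPM, against 395 to 1582 CPM in those numbered 2 to 4, and summed oligodendrocyte markers (10 genes) of 103 to 115 against 410 to 1696 CPM. Summed thalamic neuron markers (8 genes) were 807 to 846 against 1382 to 3011 CPM, GABAergic markers (4 genes) 26.4 to 45.5 against 148 to 579 CPM, and the habenular markers 8297 to 8746 against 4233 to 7234 CPM. Right replicate 2 had the lowest glial sums of the 6 libraries numbered 2 to 4. Below, a gene is called lower (or higher) in replicates 1 and 5 where all 4 of these libraries lay below (or above) all 6 others. That held for 24.4% (lower) and 22.4% (higher) of all genes kept. It held (lower) for 10 of 10 astrocyte, 10 of 10 oligodendrocyte, 5 of 8 microglial, 7 of 8 endothelial and pericyte, 6 of 8 thalamic and 4 of 4 GABAergic markers, and (higher) for 8 of 10 habenular markers, none of which was at 0 in all libraries. Of the other thalamic markers, Slc17a6 overlapped between the sets (324 to 349 CPM in replicates 1 and 5). Calb2 was higher in replicates 1 and 5 (218 to 236 CPM), and both genes made up much of the thalamic sum there. The labels give these sets of libraries no name, and the sets also differ in sequencing lane. Cell composition, lane and replicate number therefore cannot be told apart. In counts of reads from tissue, fewer cells of a type and less RNA per cell cannot be told apart either. Between left replicates 1 and 5 the counts differed by 2.57 times counting noise (chi-square per degree of freedom, genes of 100 to 500 reads) and between right replicates 1 and 5 by 1.31 times, against 9.16 to 82.1 times for other pairs of a side. They were counted as separate libraries, and the labels do not say that libraries came from separate animals, so p-values measure only the spread between these libraries.

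A few channel genes held most of the potassium channel reads. The 9 genes that averaged 100 CPM or more, among them Kcnip1, Kcna2, Kcnd2, Kcng4, Kcnd3, Kcnip3 and Kcnn3, held 73.6% of the summed CPM of the 73. This share is not scaled to gene length, so longer genes weigh more in it. Per kb of exon, Kcnk1 (26.6 CPM per kb), which is not among the 9, lay above Kcnn3 (12.4). Per kb of exon, the order began with Kcnip1 at 128 CPM per kb, followed by Kcnd2 at 80.6, Kcng4 at 71.9, Kcna2 at 66.4 and Kcnip3 at 53.9. Kcnip1 was above the other 4 in 10 of 10 libraries. The ranges over libraries of Kcnd2 (58.1 to 94.6 CPM per kb), Kcng4 (38.1 to 94.9), Kcna2 (52.3 to 92.5) and Kcnip3 (43 to 67.3) overlapped. Kcnd2 was above Kcna2 in 6 of 10 libraries, Kcng4 above Kcna2 in 6 and Kcng4 above Kcnip3 in 7, so the order of Kcng4 and Kcna2 among these genes varied by library. With the longest transcript as length Kcnip1 was at 194 CPM per kb, and Kcnip3, at 69.99, passed Kcna2, at 68.3. These genes include the subunits of the A-type current, a fast current that delays the next spike.

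**Figure D1:**
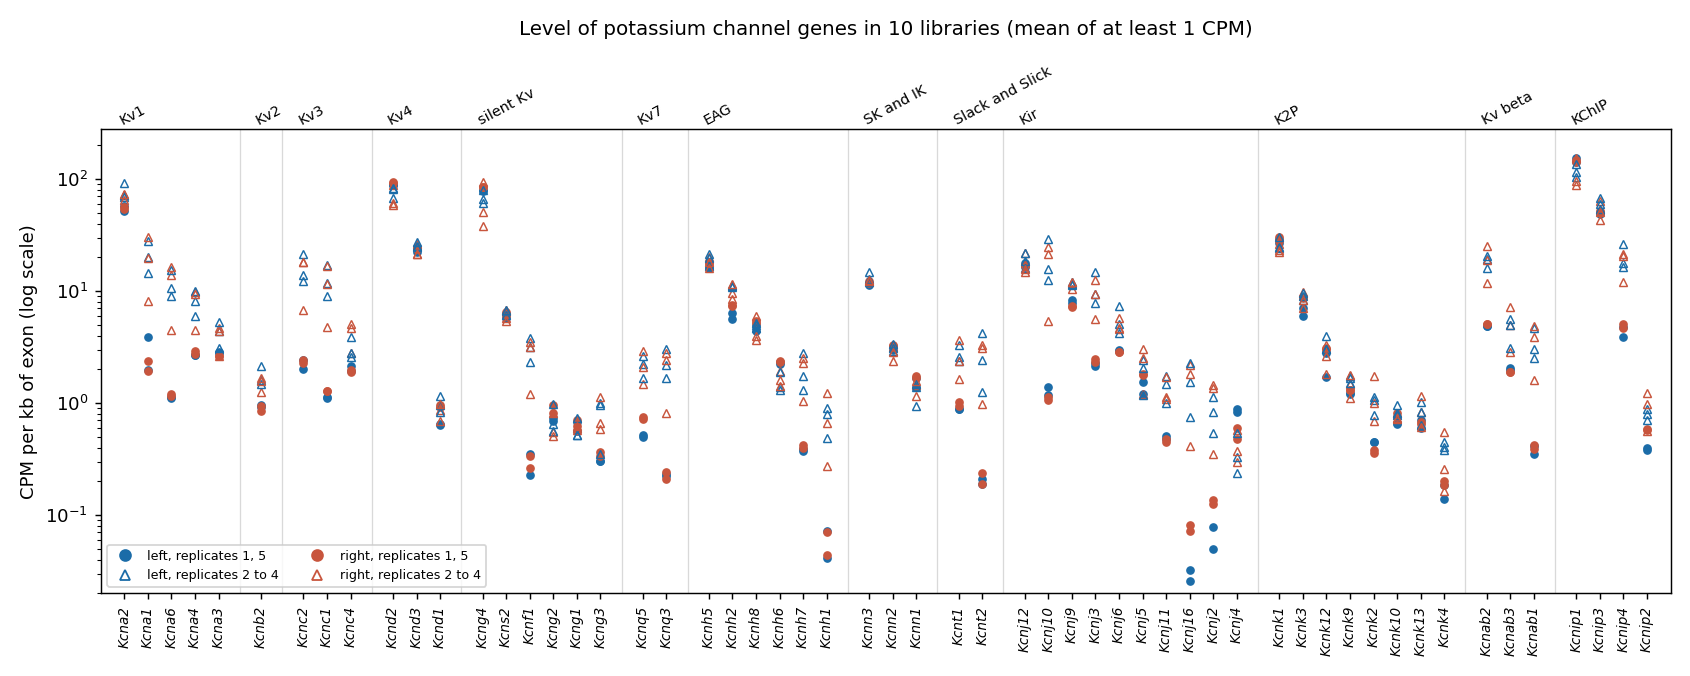
Level of 56 potassium channel genes in the families shown, in CPM per kb of exon on a log scale, grouped by family, with 1 symbol per library (circles: replicates 1 and 5; open triangles: replicates 2 to 4; blue left, red right). Kcnip1, Kcnd2, Kcng4 and Kcna2 lie highest, while the circles of Kcna1, Kcnc1, Kcnj10 and Kcnq3 lie far below their triangles.

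Kv4 subunits and the KChIPs that bind them were abundant together. Kcnd2, the pore subunit Kv4.2, was at 454, 423, 351, 433 and 453 CPM on the left and 474, 459, 318, 299 and 487 CPM on the right. Kcnd3, the pore subunit Kv4.3, was at 238, 244, 237, 263 and 215 CPM on the left and 235, 254, 204, 205 and 227 CPM on the right. Neither gene separated the sides or the sets of libraries. Kcnd1, the third Kv4 gene, was far lower, at 0.867 CPM per kb. Within a library Kcnd2 exceeded Kcnd3 per kb by 3.54 to 3.99 times in replicates 1 and 5 and by 2.71 to 3.37 times in the others. Kcnip1, which encodes KChIP1, was at 950.5, 848, 653, 724 and 873 CPM on the left and 909, 959, 547, 601 and 874 CPM on the right. Kcnip3, also known as DREAM or calsenilin, was at 171, 212, 193, 239 and 176 CPM on the left and 182, 224, 182, 153 and 179.5 CPM on the right. In Kcnip1 the 4 libraries numbered 1 and 5 lay among the highest, with right replicate 2 above them all, and the sides overlapped. Kcnip4 was different, with 17.2, 59, 64.8, 95.3 and 14.1 CPM on the left and 18.4, 43.8, 78.3, 74 and 17 CPM on the right, lower in replicates 1 and 5 than in every other library. The ratio of Kcnip1 to Kcnip4 per kb was therefore 28.8 to 36.3 in replicates 1 and 5 and 4.09 to 12.8 in the others. Kcnip2 stood at a mean of 2.47 CPM. Among proteins outside the Kcn names that join Kv4 channels, Dpp6 had a mean of 407 CPM with overlapping sets, and Dpp10 ranged from 221 to 237 CPM in replicates 1 and 5, above the 153 to 200.4 CPM of the others.

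Silent Kv genes and the delayed rectifier gene Kcnb2 followed. Kcnb2 was at 14.7, 22.3, 24.6, 32.3 and 14.1 CPM on the left and 14.4, 19.2, 25.5, 23.7 and 12.9 CPM on the right, lower in replicates 1 and 5. Kcng4, the silent subunit Kv6.4, reached 296, 305, 232, 251 and 304 CPM on the left and 326, 361, 195, 145 and 320.1 CPM on the right. It was the most abundant silent subunit, at 71.9 CPM per kb, against 6.19 for the next, Kcns2, and was lowest in right replicates 3 and 4. Kcng1 had a mean of 2.77 CPM, Kcng2 2.17 CPM and Kcng3 2.01 CPM. Kcnf1, the silent subunit Kv5.1, behaved otherwise, with 1.69, 11.2, 15.1, 18.2 and 1.1 CPM on the left and 1.62, 5.8, 16.9, 15.3 and 1.25 CPM on the right. Its 4 lowest libraries were those numbered 1 and 5. Kcns3, Kcnv1 and Kcns1 had means under 1 CPM, and the last 2 of these reached 10 reads in none of the libraries numbered 1 and 5. Among the Kv2 partners, Amigo1 overlapped between the sets (mean 82.4 CPM), Vapb did so too (153 CPM), and Vapa was higher in replicates 1 and 5 (198 to 225 CPM) than in the others (80.1 to 130 CPM).

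Kv1 genes, which set the firing threshold of axons, were led by 1 gene. Kcna2 was at 682, 821, 862, 1101 and 622 CPM on the left and 671, 855, 883, 768 and 645 CPM on the right, on each side lower in replicates 1 and 5 than elsewhere by a small margin (log2 ratio of mean CPM, replicates 1 and 5 to the other libraries, -0.43). Kcna1 was at 18.5, 69.4, 96.9, 134 and 9.51 CPM on the left and 11.3, 39.1, 144, 93.7 and 9.21 CPM on the right. Kcna6 was at 6.79, 53.6, 63.8, 91.3 and 6.55 CPM on the left and 7.18, 26.9, 97, 83.2 and 6.86 CPM on the right. In both of the latter every library numbered 1 or 5 lay below every other library, with log2 ratios of -2.99 and -3.34. In the annotation 39.6% of the exonic bases of Kcna6 are shared with Gm26673, and without the strand setting of the counting its reads are uncertain to that extent. Kcna4 showed the same order with a log2 ratio of -1.54 (mean 28.5 CPM), while Kcna3 overlapped (mean 6.74 CPM) and Kcna5 was under 1 CPM. Per kb, Kcna2 was 14.8 to 28.1 times Kcna1 in replicates 1 and 5 and 2.46 to 8.78 times in the others, so the gap between these relatives depended on the library. The 3 Kv beta genes, whose proteins bind Kv1 channels, were all lower in replicates 1 and 5. Kcnab2 was at 27.1, 89, 109, 116 and 27.4 CPM on the left and 28.5, 65.3, 140.0, 106 and 28.4 CPM on the right, Kcnab1 had a log2 ratio of -3.13 and Kcnab3 of -1.30. Of the genes for Kv1-associated proteins, Cntnap2 (log2 ratio -0.30), Lgi1 (-0.34) and Adam22 (-0.61) were lower without overlap as well.

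Kcnc1, Kcnc2 and Kcnc4, Kv3 genes that encode channels of fast-spiking neurons, were lower in replicates 1 and 5. Kcnc1 was at 10.5, 86.3, 111, 162 and 10.8 CPM on the left and 12.2, 44.8, 158, 109 and 12.1 CPM on the right. Kcnc2 was at 17.1, 88.1, 100.1, 154 and 14.4 CPM on the left and 17.5, 48.7, 130.4, 131 and 16.1 CPM on the right. The log2 ratios were -3.30 for Kcnc1, -2.74 for Kcnc2 and -0.88 for Kcnc4, which had a mean of 10.9 CPM. GABAergic markers moved with these genes, at 26.4 to 45.5 CPM in replicates 1 and 5 against 148 to 579 CPM. So did the astrocyte, oligodendrocyte and thalamic sums given above, and the part of any of these in the result was not tested.

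Kv7 channels carry the M-current, which acetylcholine closes through muscarinic receptors. Kcnq3 was at 3.27, 24.7, 32.2, 45 and 3.45 CPM on the left and 3.58, 12.1, 41.2, 35.5 and 3.08 CPM on the right. Kcnq5 was at 3.83, 12.9, 17.3, 20.3 and 4.02 CPM on the left and 5.76, 11.3, 22.4, 16 and 5.58 CPM on the right. Both were lower in replicates 1 and 5, with log2 ratios of -3.25 and -1.80. Ank3, which anchors Kv7 channels at the axon start, had 239 to 255 CPM in replicates 1 and 5, below the 564 CPM or more of the other libraries.

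In the EAG family (Kv10 to Kv12) the leading gene did not separate the libraries. Kcnh5 was at 66.9, 67.8, 80.3, 86.3 and 64.7 CPM on the left and 72.2, 81.2, 73.2, 64.6 and 71.5 CPM on the right. Kcnh2, the ERG channel gene, was at 27.5, 54.6, 54, 52.3 and 31.2 CPM on the left and 35.3, 46.3, 55.9, 41.1 and 36.3 CPM on the right, lower in replicates 1 and 5. Kcnh7, another ERG gene, was lower there by a log2 ratio of -2.30, and Kcnh1 was at 0.303, 3.6, 6.56, 5.88 and 0.523 CPM on the left and 0.521, 2.01, 9.03, 4.87 and 0.324 CPM on the right (log2 ratio -3.67). Kcnh6 went the other way, with 7.99, 6.65, 4.97, 4.61 and 8.21 CPM on the left and 8.19, 6.8, 5.07, 5.67 and 8.42 CPM on the right. Its 4 highest libraries were those numbered 1 and 5, as they were for Kcnu1, the Slo3 channel gene best known from sperm, at 5.14, 4.47, 3.77, 2.92 and 4.67 CPM on the left and 4.95, 3.44, 2.53, 1.46 and 4.8 CPM on the right. Kcnh8 overlapped (mean 22.1 CPM). Both sodium-activated channel genes were lower in replicates 1 and 5. Kcnt1 was at 8.38, 22.4, 24.6, 31.3 and 8.35 CPM on the left and 9.61, 15.7, 34.8, 22.7 and 8.99 CPM on the right and Kcnt2 at 1.43, 8.7, 16.6, 28.9 and 1.32 CPM on the left and 1.65, 6.75, 22.9, 21.4 and 1.31 CPM on the right, with log2 ratios of -1.52 and -3.62.

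Of the SK genes, whose channels shape the pause after a spike, Kcnn3 varied least. Kcnn3 was at 124, 133, 127, 154 and 117 CPM on the left and 127, 129, 132, 128 and 122 CPM on the right, a narrow range on both sides. Kcnn2 had a mean of 22.7 CPM with a log2 ratio of 0.09, and Kcnn1 a mean of 6.63 CPM with 0.29. Kcnn1 ranged from 4.31 to 7.94 CPM. All 3 overlapped between the sets. Calmodulin is the calcium sensor of these channels. Calm2 was higher in replicates 1 and 5 by a log2 ratio of 0.99, and Calm3 overlapped.

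K2P genes, which encode leak channels, had moderate levels. Kcnk1, the TWIK1 subunit, was at 65.1, 67.9, 54, 55.7 and 60.6 CPM on the left and 67.6, 59.4, 50.1, 52.3 and 62.1 CPM on the right. Kcnk3, the acid-sensitive TASK1 subunit, was at 24, 38.3, 35.6, 32.8 and 28.2 CPM on the left and 34.4, 38.9, 33.1, 28.3 and 35.4 CPM on the right. These showed no separation of sides or sets. Kcnk9 had a mean of 17.7 CPM, Kcnk12 5.6, Kcnk10 6.77 and Kcnk13 2.4. Only Kcnk2 (TREK1) of the 9 kept K2P genes was lower without overlap, with a log2 ratio of -1.39 and a mean of 3.98 CPM. Kcnk4 overlapped at a mean of 1.31 CPM, and Kcnk6 averaged under 1 CPM.

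Inward rectifiers split into groups. Kcnj10, which encodes the Kir4.1 channel of astrocytes and oligodendrocytes, was at 7.59, 67.8, 84.9, 156 and 6.44 CPM on the left and 6.08, 29.3, 117, 134 and 5.74 CPM on the right. Kcnj16, the Kir5.1 partner of Kir4.1, was at 0.101, 2.93, 6.08, 8.99 and 0.126 CPM on the left and 0.283, 1.64, 7.12, 8.57 and 0.324 CPM on the right. Of the libraries numbered 1 and 5, only 2 reached 10 reads for Kcnj16, so its ratio rests on few reads there. Replicates 1 and 5 lay below all others in both Kcnj10 and Kcnj16, with log2 ratios of -3.93 and -4.82. The astrocyte and oligodendrocyte sums given above moved with these genes, as did the thalamic and GABAergic sums. The part of any of these in the result was not tested. Kcnj2, the classical strong rectifier Kir2.1, had a log2 ratio of -3.28, while its relative Kcnj12 (Kir2.2) was at 44.7, 60.5, 44.2, 51.1 and 49.1 CPM on the left and 46.1, 59.6, 43, 40.6 and 47.4 CPM on the right with no set apart, and Kcnj4 (Kir2.3), at a mean of 1.11 CPM, had the highest log2 ratio of the genes averaging 1 CPM or more, 0.83, with overlap.

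The Kcnj3, Kcnj5, Kcnj6 and Kcnj9 genes encode the G-protein-gated (GIRK) channels that GABA-B and other receptors open. Kcnj9 (GIRK3) was at 33.7, 52.1, 48.2, 49.6 and 35.5 CPM on the left and 31.3, 44.6, 51.6, 50.9 and 31 CPM on the right. Kcnj6 (GIRK2) was at 22, 32.4, 38.9, 55.7 and 22.9 CPM on the left and 21.9, 35.3, 43.6, 35.4 and 21.7 CPM on the right. Kcnj3 (GIRK1) was at 11.9, 40.9, 49.5, 77.3 and 11.3 CPM on the left and 12.9, 29.1, 65.5, 49.3 and 12 CPM on the right. All 3 were lower in replicates 1 and 5, Kcnj3 by the most (log2 ratio -2.11, against -0.86 for Kcnj6 and -0.59 for Kcnj9), and 31.1% of its exonic bases are shared with Gm26794. Per kb, Kcnj9 was 2.96 to 3.83 times Kcnj3 in replicates 1 and 5 and 0.78 to 1.86 times in the others. Kcnj5 (GIRK4) overlapped at a mean of 8.76 CPM. Kcnj11, the pore of the ATP-sensitive channel, was lower (log2 ratio -1.51), as were the genes of its partner subunits, Abcc8 (-2.0) and Abcc9 (-4.71). Kcnj8 and Kcnj13 averaged under 1 CPM, and 49.1% of the exonic bases of Kcnj13 are shared with Gigyf2.

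The genes that carry the name without encoding a pore or subunit had low or uneven levels. Kcnq1ot1, the long noncoding RNA that silences neighbours of the imprinted Kcnq1 locus, was at 1.6, 35.9, 46.7, 56.5 and 1.41 CPM on the left and 2.07, 16.6, 55, 40.2 and 1.72 CPM on the right. Its libraries numbered 1 and 5 were far below the rest (log2 ratio -4.62), while Kcnq1 itself stayed under the read limit. Kcnrg was at 0.455, 1.87, 1.5, 1.02 and 0.379 CPM on the left and 0.894, 1.23, 2.04, 1.37 and 0.559 CPM on the right, also lower in replicates 1 and 5 without overlap. Kcnd3os averaged 0.396 CPM. Among the genes of auxiliary subunits, Kcne1l, the only KCNE gene kept of 5, averaged 0.241 CPM.

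Counted over the genes, 62 of the 73 averaged 1 CPM or more. Of these 62, 32 were lower in replicates 1 and 5 of both sides than in every other library and 2 (Kcnh6 and Kcnu1) were higher. Among all 13274 genes at that level the shares were 23.2% lower and 27.1% higher. The median log2 ratio of the 62 was -0.72, against 0.06 for all genes at that level. A log2 ratio below -1 was found for 27 of the 62 (43.5%), against 13% of all genes, and 24 of the 62 (38.7%) lay within 0.5 of 0, against 57.4%. Over the 73 genes the counts were 34 lower and 2 higher, beside the 24.4% and 22.4% of all genes kept. These 34 include Kcnv1 and Kcns1, which reached 10 reads only in libraries numbered 2 to 4. The split was made with earlier results of these data known, so the counts are a description with no test.

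**Figure D2:**
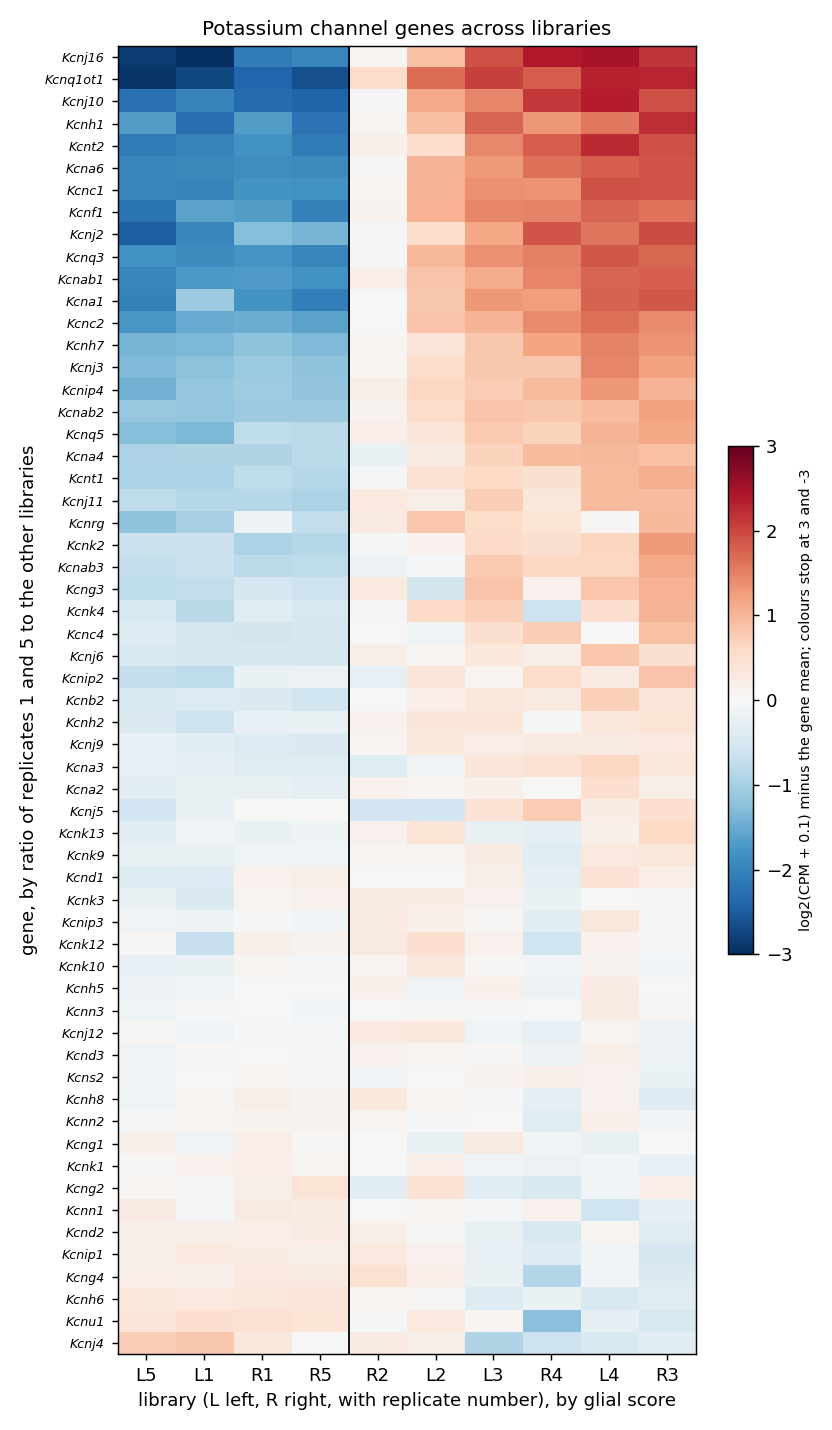
Each row is 1 of 59 genes averaging 1 CPM or more and each column 1 library, ordered by glial score (mean log2 CPM of 36 glial and vascular marker genes). Colour is log2(CPM + 0.1) minus the mean of the gene. The 4 libraries numbered 1 and 5, left of the line, are blue for the upper rows, and right replicate 2 is palest among the rest.

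The 9 genes above 100 CPM had log2 ratios between the sets of -0.57 to 0.33. Some of them were lower in replicates 1 and 5 without overlap, such as Kcna2 (-0.43). The lower genes summed to 1079 to 1168 CPM in replicates 1 and 5 and to 1755 to 3057 CPM in the other libraries, and this sum follows from the choice of genes. The remaining kept genes summed to 2889 to 3067 CPM in replicates 1 and 5 and to 2231 to 3282 CPM in the others. In 27 of the 34 lower genes right replicate 2 was the lowest of the 6 libraries numbered 2 to 4. Without that library 37 of 73 genes were lower and 5 higher (Kcnd2, Kcnd3os, Kcnh6, Kcnip1 and Kcnu1). Leaving out a library eases the rule of no overlap for every gene. The share over all genes without that library was not computed, so the rise cannot be read as particular to these genes.

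**Figure D3:**
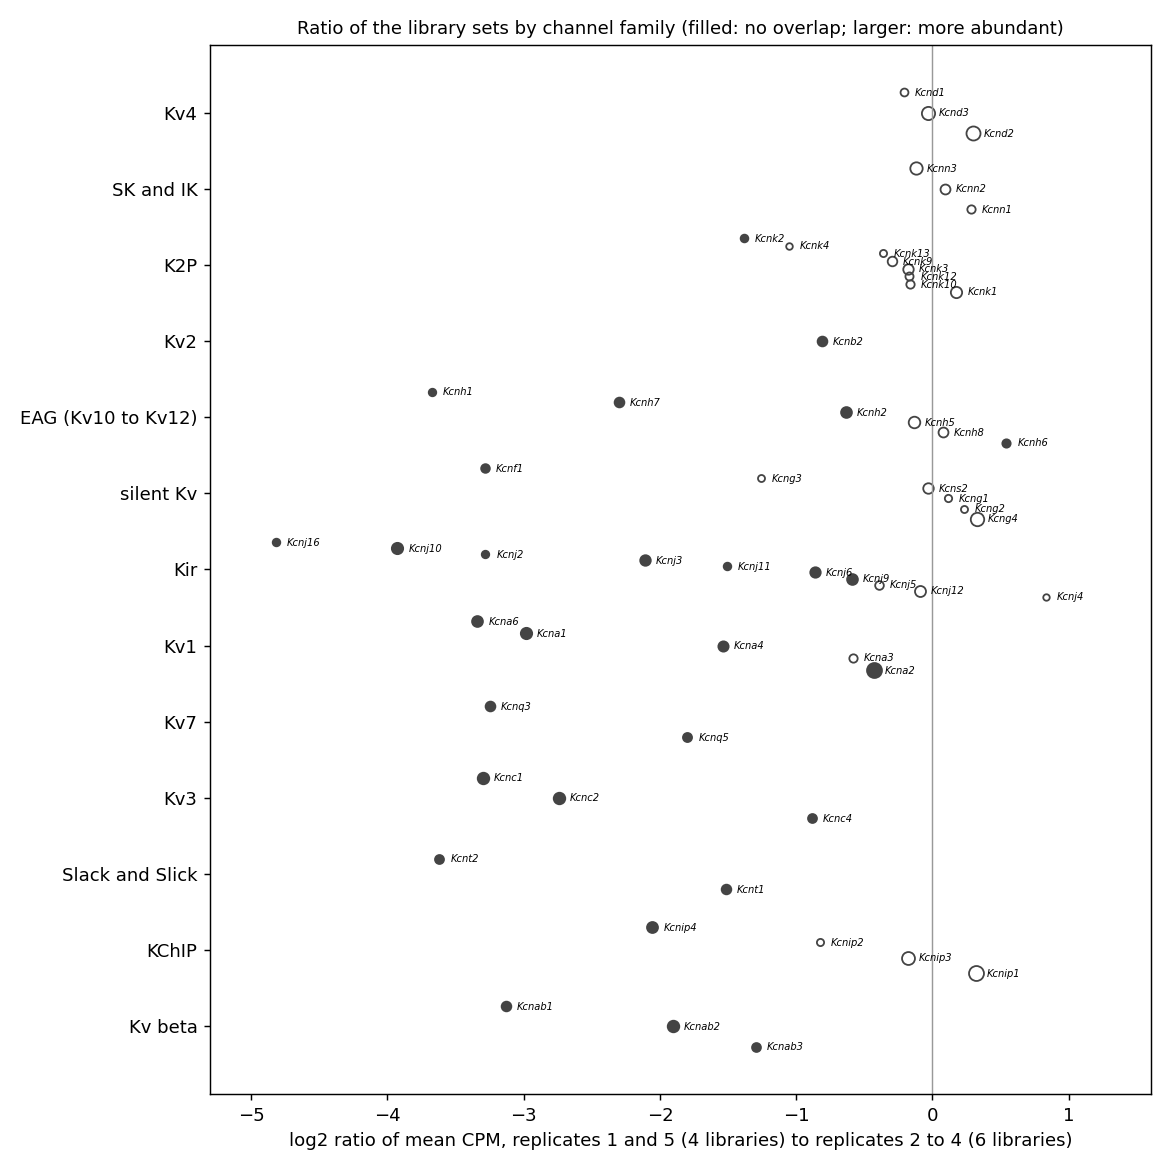
Log2 ratio of mean CPM, replicates 1 and 5 (4 libraries) to replicates 2 to 4 (6 libraries), for genes averaging 1 CPM or more in 13 families. Each point is a gene, filled where the sets do not overlap and larger where the mean CPM is higher. The Kv beta, Slack and Slick genes shown are all filled and below 0, while the Kv4 and SK genes are all open and near 0.

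Over all genes kept, 24.4% were lower without overlap. By family, lower genes were 3 of 3 Kv beta, 2 of 2 Slack and Slick, 4 of 6 Kv1 and 7 of 12 Kir genes. They were also 3 of 7 EAG, 3 of 9 silent Kv, 1 of 4 KChIP and 1 of 9 K2P genes, and 0 of 3 Kv4 and 0 of 3 SK genes. The KChIP count was near the share of all genes. Of the 3 lower silent Kv genes, Kcns1 and Kcnv1 passed the read limit only through libraries numbered 2 to 4. That they count as lower follows in part from that limit. No test compared the families.

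The study's own contrast was the left against the right side. No potassium channel gene passed the test between the sides. In edgeR's quasi-likelihood test 0 of 73 had an adjusted p under 0.05, as did 0 of 16681 genes (0%). The unadjusted p was under 0.05 for 90 genes (0.54%) and for 0 of the 73. DESeq2 called 0 genes, with 152 genes (0.911%) and 0 of the 73 at an unadjusted p under 0.05. With limma-voom and sample weights 0 genes were called, but 2622 genes (15.7%) and 17 of the 73 had an unadjusted p under 0.05. All 17 had a higher fitted value on the left, Kcna1 by 1.88 and Kcnj10 by 2.30 on the log2 scale. The libraries of the sides overlapped for all 73, where 0.24% of all genes did not. The log2 fold change, left minus right, was above 0 for 40 of the 73, beside 46.3% of all genes, with a median of 0.02.

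Among the 62 genes averaging 1 CPM or more, every fold change was smaller than 0.5 in size, from -0.44 for Kcnj2 to 0.27 for Kcnu1, with a median size of 0.07. How closely the data bound a side difference depended on the gene. The log2 fold change of Kcnd3 was 0.07 (95% interval -0.12 to 0.26), that of Kcnn3 0.01 (95% interval -0.18 to 0.21) and that of Kcnk1 0.04 (95% interval -0.20 to 0.27). For 18 of the 62 the 95% interval lay within 0.5 of 0 and for 32 within 1. Genes that were lower in replicates 1 and 5 differed in this. Kcna2 had 0.07 (95% interval -0.29 to 0.43) and Kcnj9 0.04 (95% interval -0.41 to 0.48). Others had wide intervals in the fit by side alone. Examples were Kcna1 with 0.09 (95% interval -1.85 to 2.04) and Kcnj10 with 0.09 (95% interval -2.30 to 2.47). Kcnc1 had 0.13 (95% interval -1.92 to 2.19). When the glial score was added to the fit the intervals were far narrower, -0.01 to 0.60 for Kcna1, -0.05 to 0.52 for Kcnj10 and -0.05 to 0.27 for Kcnc1, and edgeR called none of them (adjusted p 0.9997 in each). The highest value of the 73 was that of Kcnh4, 1.58 at a mean of 0.199 CPM, a gene named after its value was seen.

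**Figure D4:**
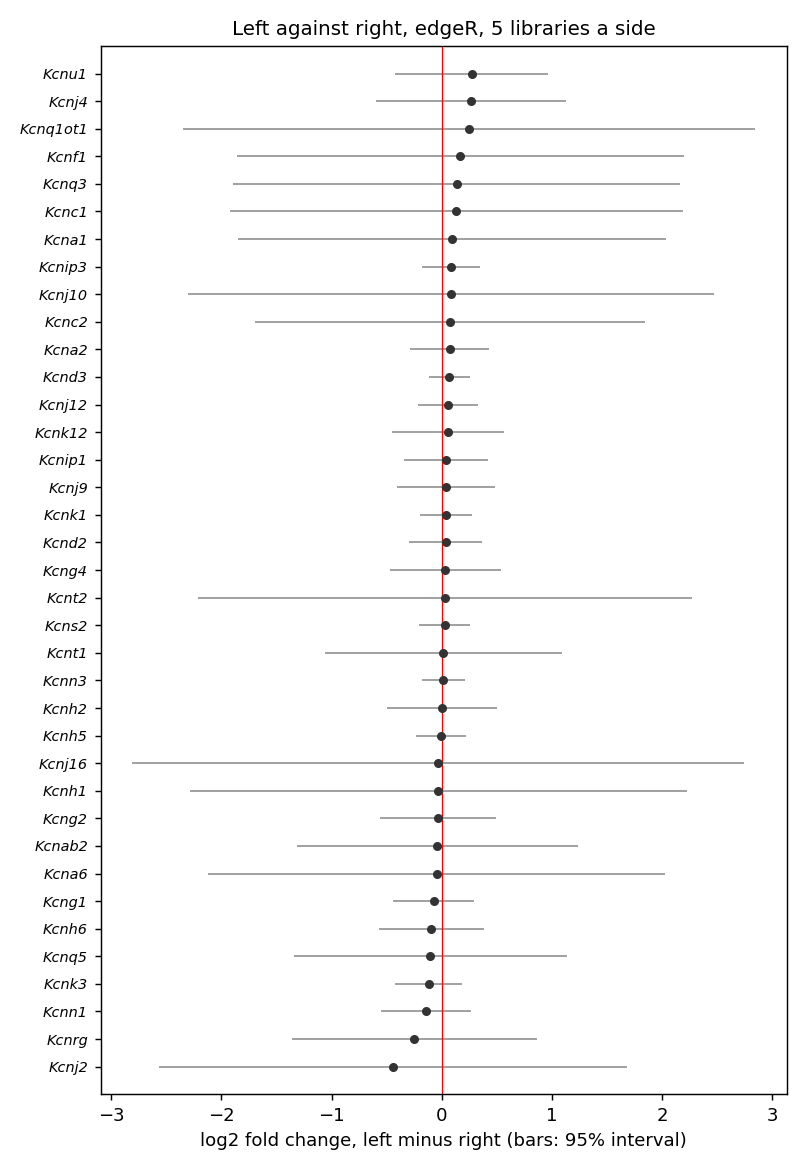
Log2 fold change, left minus right, for 37 named genes averaging 1 CPM or more, from edgeR with 5 libraries a side; bars are 95% intervals. All points lie between -0.44 and 0.27, and every interval includes 0.

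The sets of libraries were also fitted alone. With replicates 1 and 5 alone, 2 libraries a side, edgeR called 7 of 62 tested genes, beside 9.61% of all genes tested. Kcnj4 was higher on the left (log2 fold change 0.66). Kcnj2 (-1.03), Kcnip2 (-0.59), Kcnd1 (-0.56), Kcnq5 (-0.53), Kcnk3 (-0.42) and Kcnj5 (-0.39) were higher on the right. The share of 7 in 62 is near that of all genes. In replicates 2 to 4 alone none of these 7 was called by edgeR (adjusted p 0.9999 or more in each), and the values were 0.20 for Kcnd1, -0.17 for Kcnj4, -0.38 for Kcnj2, -0.23 for Kcnip2, -0.29 for Kcnj5, 0.07 for Kcnk3 and -0.0012 for Kcnq5. Left replicates 1 and 5, and right replicates 1 and 5, were the most alike pairs of their sides, so the spread in that test may not be that between separate samples. The difference between the sets in these side effects was not tested.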

How the data were processed

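RNA bound to tagged ribosomes was measured in 10 libraries, 5 per side. The authors deposited raw counts of reads per gene, 1 table per library. The submitters' processing notes name HTSeq, STAR 2.0.0e and build mm10, while annotation and strand setting are not recorded in the sources used. The tables had 32537 rows each, and 6 that name no gene were left out. Library totals were 42488448 to 67942836 reads. Symbols were matched to GENCODE M21 (91 of 91) for exon length, position and sequence. Genes with at least 10 reads in 4 or more libraries were kept, and no value was imputed. Over 10% of exonic bases are shared with another gene in 7 kept members (among them Kcna6, Kcnd3os, Kcnj3, Kcnj13, Kcnk2 and Kcnk4), whose counts are uncertain to that extent.

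Sides were taken from the titles and compared with edgeR 4.0.16 in R 4.3.3 (quasi-likelihood test, TMM factors, side as the only term, two-sided, Benjamini-Hochberg over all 16681 genes, threshold 0.05). Each log2 fold change has its 95% interval from that fit. The script was tested on simulated data. Replicates 1 and 5 were set beside the others by CPM alone, with no test. Alternatives were other normalisations, filters and a threshold of 0.10, DESeq2 1.42.0, limma-voom (limma 3.58.1), a glial covariate, a replicate block, subsets of libraries and leaving out each library. For the ratios they were other scalings and 0.1 CPM added to both means, and for levels the longest transcript as gene length.

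Named were the most abundant members of each family per kb, the 10 with the highest and the 10 with the lowest ratio between the sets (mean of at least 1 CPM), members with a mean of at least 100 CPM, any with an unadjusted p under 0.05, and a list of 15 channel partners. A few genes and sequences are not reported here, though counts over all members include them. Other members were named after their values were seen, to complete their families. The members and all lists were chosen with earlier results of these data known. Figures were drawn with matplotlib 3.10.9.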

Additional observations from a re-analysis of the deposited data

Results flagged for a closer look

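Total gene reads of right replicate 4 were 42488448, against 65163980 to 67942836 in the other 4 right libraries. Its gap to the nearest was 0.891 of the range of the group, above the critical value of 0.71 for 5 samples. It was the 1 value marked among 84 groups of 5 libraries that were examined (total reads and the named genes on each side), and chance marks about 1 in 20 groups. Levels in CPM are scaled to the total, and leaving that library out gave 0 called potassium channel genes between the sides, as with all libraries.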

How the results depend on the processing

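Between the sides, 0 genes and 0 potassium channel genes were called by edgeR, DESeq2 and limma-voom under every alternative run except 1, with the 10 that leave out 1 library ranging from 0 to 0. With replicates 1 and 5 alone, the exception, edgeR called 1400 genes and 7 potassium channel genes, among fewer samples and 14566 genes. The numbers of the replicates were checked for pairing: deviations from the side means correlated between same-numbered libraries at 0.847, 0.081, 0.786, 0.695 and 0.864 for replicates 1 to 5, and 6 of 10 libraries correlated best with their own number. Since replicate 2 was under 0.1, the numbers were not taken as pairs; with the replicate block 0 genes were called by edgeR (311 at an unadjusted p under 0.05) and 0 potassium channel genes (3 so, Kcnh4, Kcnj13 and Kcnj5). For the 41 named genes, 168 of 859 side values had the other sign, and limma-voom with sample weights gave values of 1.80 for Kcna6 and 2.08 for Kcnh1; the cause was not tested. When a library was left out, 34 to 37 potassium channel genes were lower in replicates 1 and 5 and 2 to 5 higher. The highest of both counts came without right replicate 2. Shares over all genes were not computed for these subsets, in which the rule of no overlap is easier to meet. TMM and median-of-ratios scaling gave 34 and 35 lower, the added gene being Kcnn3, beside 24.7% and 25.1% of all genes kept. Both gave 2 higher, beside 23.3% and 22.5%. Every one of 533 ratios stayed within 1 SD. With the longest transcript as length, 5 of 41 levels moved by more than 1 SD, among them Kcnip1 to 194 CPM per kb. Few reads limit the genes with means under 1 CPM. In the fit by side alone, the spread between libraries widens the side intervals of some genes lower in replicates 1 and 5, such as Kcna1.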
